A study of Mus musculus with 10 samples.

Results

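The genes described here are a set of fibroblast and reticular matrix genes taken beside decorin (Dcn) in RNA libraries of CD3+ T cells, which were isolated from the spleens of Nf1OPG mice. The rule named 8 genes: Cdh11, Cxcl12, Ddr2, Dpt, Fbln1, Fbn1, Fn1 and Fstl1. Of these, 6 were analysed among the 20617 genes of the table, and Dpt and Fbn1 were not analysed here. The set was selected on earlier results of these libraries, with the difference between PBS and OVA and the likeness to Dcn among them, so the PBS and OVA values of the members and their likeness to Dcn are given as descriptions. Calls of the tests across all genes are counted for the members only beside the share of all rows called.

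Nf1OPG mice carry 1 mutant and 1 floxed allele of Nf1 with Cre recombinase driven by the GFAP promoter, which removes Nf1 from neuroglial progenitors and not, by design, from T cells, so that the T cells of both groups carry 1 mutant Nf1 allele. The 5 control mice received PBS (replicates 1 to 5). The 5 OVA mice (replicates 6 to 10) were sensitised with chicken-egg ovalbumin at 16 ug/mL in aluminum hydroxide at 2 mg/mL, by injection of 0.5 mL into the peritoneum on days -14 and -7, and per the study's methods the model goes on with ovalbumin given into the nose. One library was made per replicate. The age at which spleens were taken is not given for these libraries, and nothing in the labels says whether mice were pooled, so the spread between libraries may hold technical as well as biological variation.

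Fibroblasts and fibroblastic reticular cells are the stromal cells that build the scaffold of the spleen. They lay down collagen fibres coated with fibronectin, fibulins and small proteoglycans such as decorin, and they secrete chemokines that place lymphocytes in their zones. T cells are not known as a main source of this matrix. An isolation of T cells from spleen can carry along a few stromal cells or myeloid cells, some of which make fibronectin themselves. For decorin, the study reported higher Dcn RNA in CD4+ and in CD8+ splenic T cells of OVA mice. It also reported more decorin protein in the medium of their CD3+ T cells. Which cells gave the reads described here was not tested.

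In the deposited table the gene names are out of step with the values. The rule takes the values from 3 rows above the name of Cdh11, from 5 rows above those of Cxcl12, Ddr2 and Dcn, and from 7 rows above those of Fbln1, Fn1 and Fstl1. These distances were checked without the treatment groups, from genes abundant in T cells or in all cells whose names stand near each member. The median level of 22 such genes near Cdh11 was highest at 3 rows, at 12.5 on the log2 scale of the mean normalized count plus 1, against 10.0 at the next best distance. The median of 11 genes near Cxcl12 and of 15 near Ddr2 was highest at 5 rows, at 11.3 and 11.05. The medians near Fbln1 (8 genes) and near Fn1 and Fstl1 (15 genes) were highest at 7 rows, at 9.85 and 11.6. The smallest gap was that near Fbln1, where the next best distance, 8 rows, gave 8.95. A hidden Markov model over all rows placed each of the 6 members and Dcn at the distance of the rule, with probabilities from 0.989 for Cxcl12 to 1 for Fn1.

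**Figure D1:**
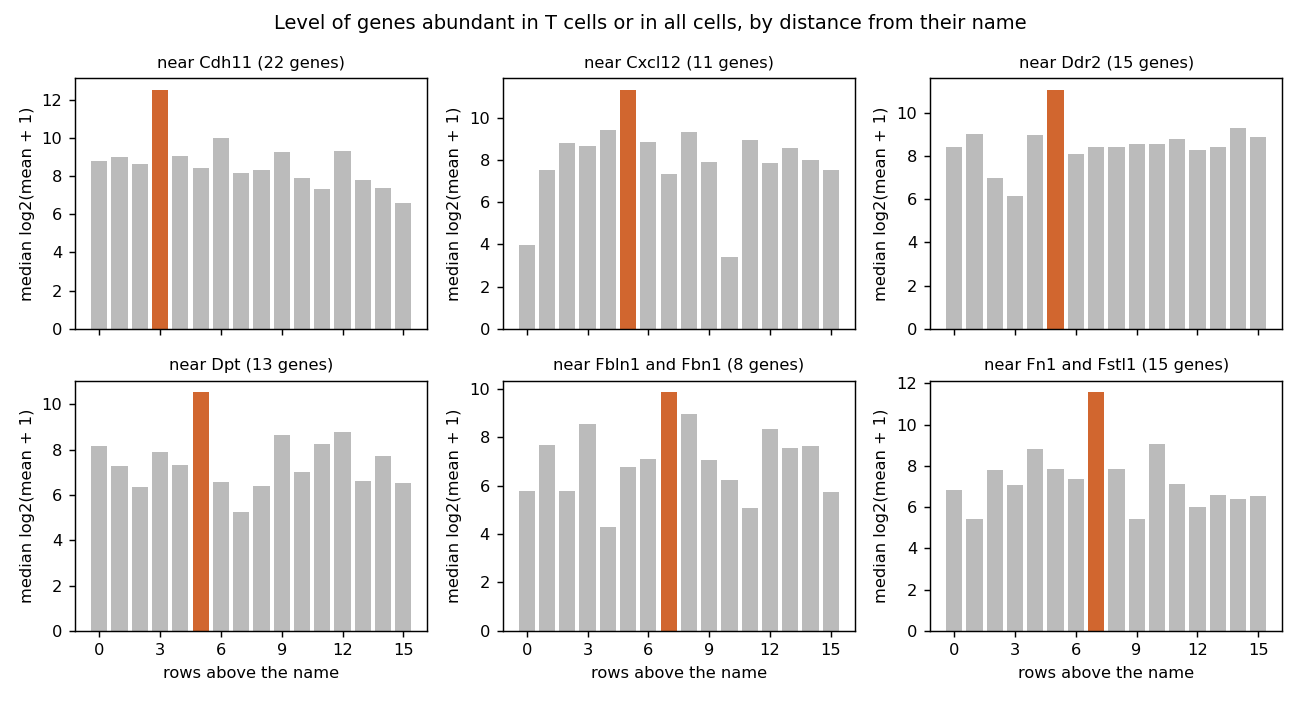
Median level (log2 of the mean normalized count over all 10 libraries plus 1) of abundant genes when their values are read from 0 to 15 rows above their name, in 6 stretches of the table near the members. The orange bar marks the highest distance in each stretch, which is 3 rows near Cdh11, 5 rows near Cxcl12, Ddr2 and Dpt, and 7 rows near Fbln1, Fbn1, Fn1 and Fstl1.

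Rows next to those of the rule held other levels, so each value below rests on its distance. For Fn1 the row of the rule had means of 119 normalized counts in PBS and 178 in OVA, while the row 1 nearer to the name had 6.04 and 0.597 and the row 1 farther had 258 and 213. For Dcn the row of the rule had 0.554 in PBS and 20.4 in OVA, and its neighbours had 426 and 536 on the nearer side and 108 and 143 on the farther side.

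The libraries held between 6835696 reads (PBS replicate 3) and 29915783 reads (OVA replicate 7), and 1 read was worth from 0.626 to 2.77 normalized counts. All 14 T cell markers examined, among them Cd3d, Cd3e, Cd4, Cd8a and Lck, were abundant in both groups, and their summed normalized counts ran from 95223 to 185993 in PBS and from 121295 to 166037 in OVA. The summed counts of the 6 members were smaller by orders of magnitude, from 74.0 to 274 in PBS and from 92.0 to 496 in OVA, and Fn1 made up from 35.7% to 84.1% of them.

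Per kilobase of merged exon the levels over all 10 libraries had the order Fn1 (12.7 ± 9.62 normalized counts per kilobase, SD, n = 10), Fbln1 (10.54 ± 4.41), Dcn (1.80 ± 2.17), Fstl1 (1.44 ± 1.01), Cdh11 (0.377 ± 0.370), Cxcl12 (0.205 ± 0.419) and Ddr2 (0.104 ± 0.185). In this order only Fbln1 and Dcn were separated by more than the sum of their SDs, while the other neighbours lay within their spread. Fn1 and Fbln1 had more than 3 reads in all 10 libraries and Fstl1 in 6, while Cdh11 had more than 3 in 3 libraries, Cxcl12 in 2 and Ddr2 in 1. By mean level, not per length, Fn1 stood above 57.8% of all rows, Fbln1 above 43.4%, Fstl1 above 24.1%, Cdh11 above 15.3%, Cxcl12 above 7.5% and Ddr2 above 1.48%.

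Promoter windows of 300 bases (250 before and 50 after an annotated RefSeq start, GRCm38.p6) were at hand for 4 of the 6 members, Cxcl12, Ddr2, Fbln1 and Fstl1. They are shown to set the detected genes Fbln1 and Fstl1 beside Cxcl12 and Ddr2, which were at 0 in most libraries. The Fbln1 window lies at chr15:85205758-85206057 on the plus strand, the Fstl1 window at chr16:37776805-37777104 on the plus strand, the Cxcl12 window at chr6:117168285-117168584 on the plus strand and the Ddr2 window at chr1:170088895-170089194 on the minus strand, where the annotated start lies inside the gene. Each is written 5′ to 3′ on the strand of the gene. Capitals mark motifs searched on both strands and allowed to overlap. The GC box was searched as GGGCGG. The TATA box was searched as TATAAA. The CCAAT box was searched by the letters of its name.
Fbln1: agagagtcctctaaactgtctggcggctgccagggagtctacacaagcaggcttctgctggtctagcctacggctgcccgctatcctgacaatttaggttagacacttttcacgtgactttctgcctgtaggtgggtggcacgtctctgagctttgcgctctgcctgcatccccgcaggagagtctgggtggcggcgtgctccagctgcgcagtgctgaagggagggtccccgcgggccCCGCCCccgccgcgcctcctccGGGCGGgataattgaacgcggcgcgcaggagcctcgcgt
Fstl1: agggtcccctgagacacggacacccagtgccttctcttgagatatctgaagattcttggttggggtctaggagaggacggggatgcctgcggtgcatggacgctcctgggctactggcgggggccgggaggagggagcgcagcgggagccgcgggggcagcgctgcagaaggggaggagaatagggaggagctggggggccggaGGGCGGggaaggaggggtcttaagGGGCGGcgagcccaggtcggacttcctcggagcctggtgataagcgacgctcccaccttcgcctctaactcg
Cxcl12: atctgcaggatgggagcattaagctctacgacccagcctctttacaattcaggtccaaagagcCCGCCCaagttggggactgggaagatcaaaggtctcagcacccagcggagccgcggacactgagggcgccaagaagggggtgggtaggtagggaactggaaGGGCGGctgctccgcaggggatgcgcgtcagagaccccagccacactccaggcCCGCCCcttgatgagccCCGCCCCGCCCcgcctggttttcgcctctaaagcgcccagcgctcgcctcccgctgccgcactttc
Ddr2: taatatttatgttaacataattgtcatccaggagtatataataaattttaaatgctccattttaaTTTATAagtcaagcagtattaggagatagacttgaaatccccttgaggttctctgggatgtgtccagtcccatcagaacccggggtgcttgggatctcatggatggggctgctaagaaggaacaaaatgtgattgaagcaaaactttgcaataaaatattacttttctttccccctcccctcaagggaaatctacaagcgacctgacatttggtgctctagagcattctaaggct

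The Fbln1, Fstl1 and Cxcl12 windows held 2, 2 and 5 GC boxes, and their G and C content was 64.0%, 66.7% and 64.7%. A second Fbln1 window, 59 bases upstream at chr15:85205699-85205998, held none, at a G and C content of 51.7%. It is the window set on the gene start given below, so the GC boxes of Fbln1 depend on the start chosen. The Ddr2 window held 1 TATA box and no GC box at a G and C content of 39.0%. No window held a CCAAT box. Of all 32851 RefSeq windows, 35.7% held a GC box, 13.6% a TATA box and 37.4% a CCAAT box, and the median G and C content was 52.7%.

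Fn1 encodes fibronectin, the large adhesive glycoprotein that cells bind through integrins (ENSMUSG00000026193, chr1:71585520-71653200, minus strand, GRCm38). In PBS replicates 1 to 5 it stood at 32.8, 135, 210.5, 178 and 40.6 normalized counts, with a mean of 119 ± 80.0 (SD, n = 5). In OVA replicates 6 to 10 it stood at 418, 120.2, 46.5, 139 and 164, with a mean of 178 ± 141 (SD, n = 5). OVA replicate 6 was the highest library, the other 4 OVA libraries lay within the PBS range, and the groups overlapped. The difference of the mean log2(normalized count + 1), OVA minus PBS, was 0.59 ± 0.58 (SE).

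Fbln1 encodes fibulin 1, which binds fibronectin and basement membrane proteins (ENSMUSG00000006369, chr15:85205949-85286535, plus strand). Its PBS values were 23.4, 30.1, 52.6, 82.8 and 53.2 normalized counts, with a mean of 48.4 ± 23.4 (SD, n = 5). Its OVA values were 51.0, 68.2, 38.9, 34.8 and 25.2, with a mean of 43.6 ± 16.6 (SD, n = 5). All 5 OVA libraries lay inside the range of the PBS libraries. The difference on the log2 scale was -0.09 ± 0.39 (SE).

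Fstl1 encodes follistatin-like 1, a secreted glycoprotein of mesenchymal cells (ENSMUSG00000022816, chr16:37776873-37836514, plus strand). It was read in all 5 PBS libraries, at 14.1, 9.47, 2.77, 2.15 and 8.12 normalized counts, where the third value is a single read. It was read in 4 OVA libraries, at 14.2, 10.0, 3.60 and 6.30 normalized counts in replicates 6, 7, 9 and 10, and stood at 0 in replicate 8. High and low libraries occurred in both groups, and the difference on the log2 scale was -0.32 ± 0.73 (SE).

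Cdh11 encodes cadherin 11, the cadherin by which fibroblasts adhere to each other (ENSMUSG00000031673, chr8:102632095-102785642, minus strand). Its PBS values were 0, 0, 8.31, 1.08 and 0.902 normalized counts, which are 0, 0, 3, 1 and 1 reads. Its OVA values were 9.0, 1.88, 5.69, 3.60 and 3.15, which are 12, 3, 6, 3 and 4 reads. Each OVA library had a read while 2 PBS libraries had none, but PBS replicate 3, the shallowest library, reached above 4 of the OVA libraries with 3 reads. The difference on the log2 scale was 1.33 ± 0.66 (SE).

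Cxcl12 encodes the chemokine by which stromal cells hold lymphocytes and blood cell precursors that carry Cxcr4 (ENSMUSG00000061353, chr6:117168535-117181367, plus strand). In PBS it was read in replicates 1 and 5, at 3.75 and 10.8 normalized counts (4 and 12 reads), and stood at 0 in the other 3. In OVA it was read once each in replicates 8 and 9, at 0.948 and 1.20 normalized counts, and stood at 0 in the other 3. Each group thus had 3 libraries without a read, and the difference on the log2 scale was -0.74 ± 0.75 (SE).

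Ddr2 encodes a receptor tyrosine kinase that is activated by fibrillar collagen (ENSMUSG00000026674, chr1:169972307-170110762, minus strand). It had no read in any PBS library. In OVA it had 6, 3 and 2 reads in replicates 6, 9 and 10, at 4.5, 3.60 and 1.57 normalized counts, and none in replicates 7 and 8. Its mean of 0.967 normalized counts over all libraries was below the minimum of 1 for the test across genes, and no fold change is given. At this depth a level of up to 3 reads in a library without a read cannot be told from 0, a limit that covers counting error only.

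**Figure D2:**
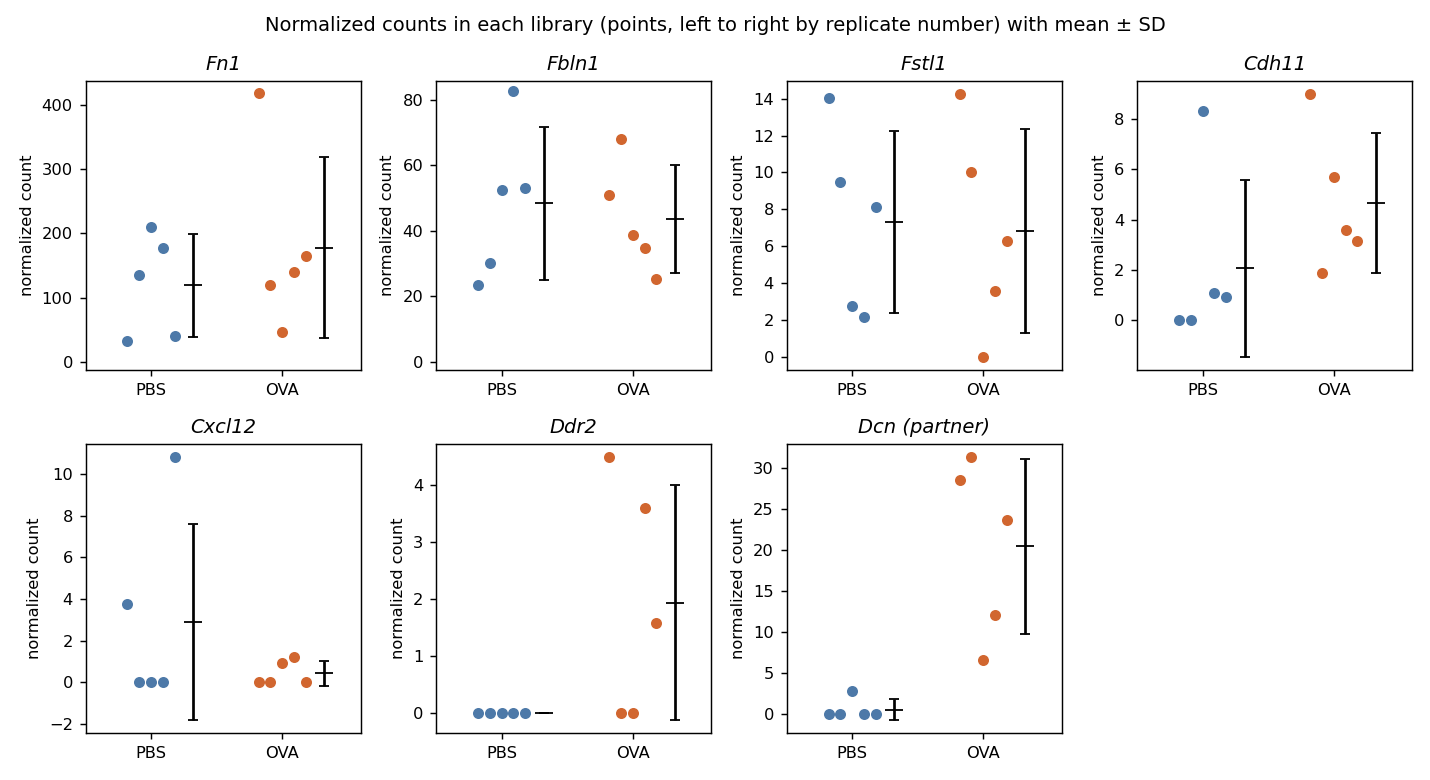
Normalized counts of the 6 analysed members and Dcn in each PBS (blue) and OVA (orange) library, ordered left to right by replicate number, with the mean and SD of each group in black (n = 5). The groups overlap for Fn1, Fbln1, Fstl1, Cdh11, Cxcl12 and Ddr2, whereas the lowest OVA library of Dcn (6.64) lies above the highest PBS library (2.77).

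Of the 6 members 3 had a higher mean on the log2 scale in OVA (Cdh11, Fn1 and Ddr2) and 3 a lower one (Fbln1, Fstl1 and Cxcl12), where Fbln1 turned to 0.017 with every library scaled to the same total and Fstl1 to 0.045 with array weights. The median difference of the 5 tested members was -0.09 and that of all 6, with Ddr2, was 0.25, while that of all 20249 rows tested was 0.04. Limma called 0 of the 5 (adjusted p under 0.05) where it called 0.00494% of all rows, a single row. DESeq2 called 0 of the 4 members to which it gave an adjusted p, where it called 0.894% of 18678 rows, and edgeR called 0 of 5. No member reached an unadjusted limma p under 0.05, a level passed by 7.12% of all rows with a higher and by 2.65% with a lower mean in OVA. No member had every OVA library above or below every PBS library, which held for 1.42% and 0.356% of all rows. Since the contrast was among the values behind the choice of the set, nothing is read from these counts.

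**Figure D3:**
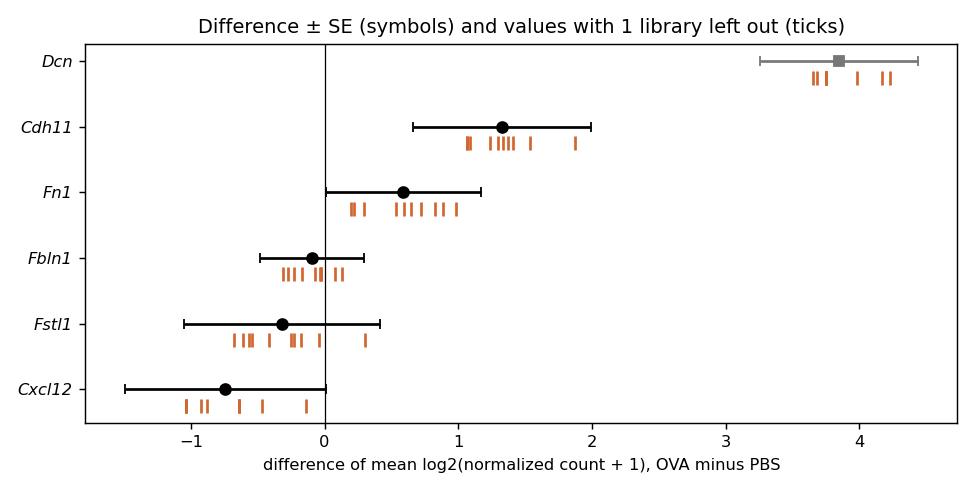
Difference of the mean log2(normalized count + 1), OVA minus PBS, with its SE (symbols and bars) for the 5 tested members and Dcn, and the same difference with each of the 10 libraries left out in turn (ticks). With 1 library left out Dcn lies between 3.65 and 4.23, whereas the differences of Fbln1 and Fstl1 lie on both sides of 0.

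Dcn, the small leucine-rich proteoglycan beside which the set was taken (ENSMUSG00000019929, chr10:97479609-97518143, plus strand), had a different pattern. It stood at 0 in 4 PBS libraries and at 2.77 normalized counts, a single read, in PBS replicate 3. In OVA replicates 6 to 10 it stood at 28.5, 31.3, 6.64, 12.0 and 23.6 normalized counts. With 1 read in PBS and 135 in OVA, the ratio of the summed rates was 103, with an exact 95% interval for counting error alone of 18.1 to 4082. The difference on the log2 scale was 3.85 ± 0.59 (SE), a size that depends on the pseudocount, with 6.50 at a pseudocount of 0.1. Neither limma (adjusted p = 0.11) nor edgeR (adjusted p = 0.11) called Dcn, so the single row called by limma was another. DESeq2 called Dcn (adjusted p = 1.9e-04), as it did 0.894% of all rows to which it gave an adjusted p. The study itself picked Dcn by a DESeq2 comparison of PBS and OVA in these libraries. The interval and adjusted p of Dcn are thus descriptions and give no independent support.

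The order of the OVA libraries by Dcn was replicate 7, 6, 10, 9 and 8, from high to low. Fstl1 had the order 6, 7, 10, 9 and 8, and Fn1 the order 6, 10, 9, 7 and 8, so that replicate 8 was lowest for all 3 genes. Fbln1 had the order 7, 6, 8, 9 and 10, and Cdh11 the order 6, 8, 9, 10 and 7. Over all 10 libraries Pearson's r with Dcn on the log2 scale was 0.69 for Cdh11, 0.63 for Ddr2, 0.48 for Fn1, 0.03 for Fbln1, 0.02 for Fstl1 and -0.46 for Cxcl12. Spearman's rho was 0.66, 0.59, 0.36, 0.07, 0.21 and -0.39 in the same order. These values are descriptions over 10 libraries that differ in depth and in the levels of cell type markers. Within a library all genes share its depth and cell makeup. Dcn separates the groups, so a pooled value cannot be told apart from a difference between PBS and OVA.

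The genes whose pattern was most like the mean of the members over the 10 libraries, among 13791 rows with a mean of at least 10 normalized counts, were Mtus1 (Pearson's r 0.96), Phf11d (0.90), Dab2ip (0.88), Cybb (0.86) and Slc35e4 (0.86). Cybb encodes the catalytic subunit of the phagocyte oxidase and ran from 369 normalized counts in OVA replicate 8 to 2314 in OVA replicate 6. None of these 5 is a collagen or a matrix glycoprotein. The minimum of 10 kept genes such as Col3a1 (mean 8.16) and Thbs1 (4.04) out of the comparison, while Col1a1 (16.4) was in it. As the highest of 13791 values over 10 libraries, these r may be high by chance, which was not tested.

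The libraries low in Fn1 were low in the sums of myeloid markers. PBS replicate 1, PBS replicate 5 and OVA replicate 8 were the 3 lowest libraries for Fn1, for Cybb, and for the summed levels of 10 macrophage markers, 7 neutrophil markers and 9 endothelial markers. The macrophage sum ran from 315 to 1192 in PBS and from 338 to 1524 in OVA, the neutrophil sum from 362 to 6619 and from 387 to 69166, and the endothelial sum from 115 to 413 and from 56.9 to 275. Of the other lists, the B cell, mesothelial, smooth muscle and megakaryocyte sums each had 2 of these libraries among their 3 lowest. The erythroid, adipocyte and pancreatic acinar sums had 1 and the T cell sum 0. Each sum weighs most on its highest genes, so the accord is one of sums and not of every marker. Csf1r and Ngp, the highest macrophage and neutrophil markers, had the same 3 lowest libraries. For Egfl7, the highest endothelial marker, PBS replicate 4 (82.8) lay below PBS replicate 1 (99.3). Cybb was named for its likeness to the mean of the members, which holds Fn1. The accord of Fn1 with the markers was noticed in the values of all 10 libraries. The part of myeloid or endothelial cells in the Fn1 reads was not tested. In bulk libraries, fewer cells of a type and less RNA per cell cannot be told apart.

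**Figure D4:**
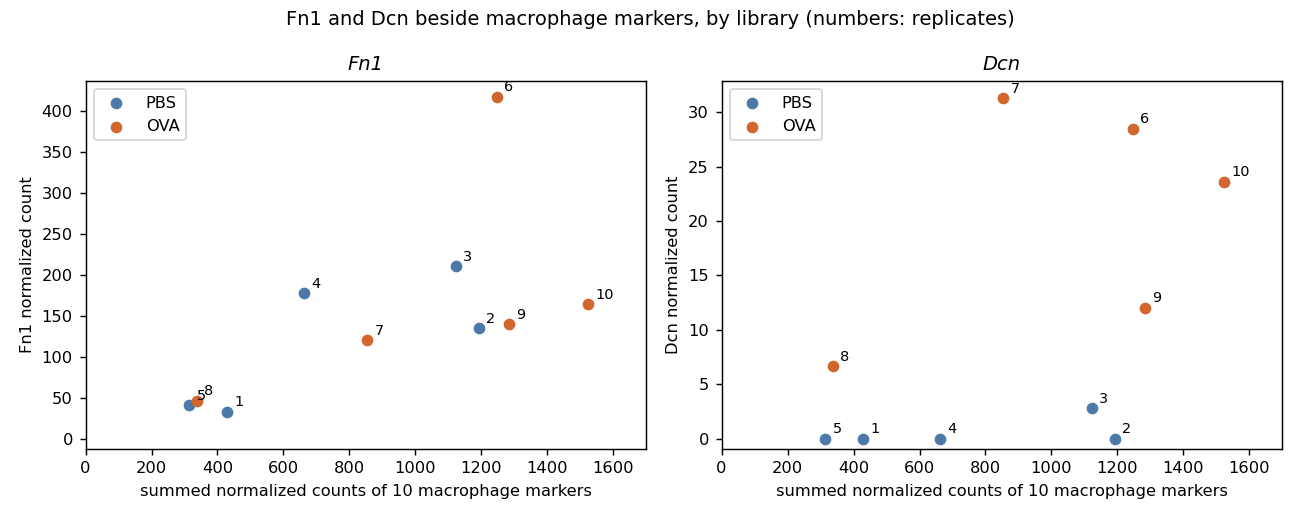
Normalized counts of Fn1 (left) and Dcn (right) against the summed normalized counts of 10 macrophage markers in each PBS (blue) and OVA (orange) library, with replicate numbers. PBS replicates 1 and 5 and OVA replicate 8 lie lowest on both axes for Fn1, while the PBS libraries lie at or near 0 for Dcn at macrophage sums from 315 to 1192.

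The surrounding programme was examined with 79 other fibroblast and reticular matrix genes, of which 43 could be placed and 42 had a mean of at least 1 normalized count. Limma called 0 of the 42, edgeR 0 and DESeq2 0 of 32 with an adjusted p. At an unadjusted limma p under 0.05 there were 11, all with higher values in OVA, a level passed by 7.12% of all rows with a higher and 2.65% with a lower mean. In all, 30 of the 42 had a positive and 12 a negative difference, and the median difference was 0.70 on the log2 scale. The median of all rows tested, which are not matched to the list for level, was 0.04. Each OVA library had values above 0 in more rows (19072 to 19564) than any PBS library (17369 to 18823). Many genes of the list lie at a few reads, and the part of this wider detection in their differences was not tested. With the 4 genes that had no read in PBS set to their lower bound, against 3 reads per PBS library, the median of the list was 0.34. Every OVA library lay above every PBS library for 4 of the 42 (1.42% of all rows), and for none did the reverse hold (0.356% of all rows).

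These 4 genes were Serping1, Thbs1, Pcolce and Pdgfrb. Pdgfrb, the receptor by which platelet-derived growth factor acts on fibroblasts and pericytes, had 20.2 ± 12.3 normalized counts in PBS and 58.1 ± 12.4 in OVA (SD, n = 5), with no OVA library under 46.5 and no PBS library over 30.7 (difference 1.74 ± 0.47 SE, limma adjusted p = 0.21). Serping1, the C1 inhibitor, had 0.833 ± 1.40 in PBS and 9.42 ± 4.26 in OVA (2.68 ± 0.57 SE, limma adjusted p = 0.14). Thbs1, the adhesive glycoprotein thrombospondin 1 of platelets and stromal cells, had 1 read in PBS and 46 in OVA (2.55 ± 0.64 SE, limma adjusted p = 0.18), but its lowest OVA library, replicate 8, held a single read as well. Pcolce, which enhances the trimming of procollagen, had no read in PBS and 5, 7, 4, 1 and 8 reads in OVA (2.19 ± 0.51 SE, limma adjusted p = 0.17).

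The placed genes with the highest levels per kilobase were Gsn (304 normalized counts per kilobase), Timp2 (40.2), C3 (36.8), Serpinf1 (20.02), Emilin1 (15.4) and Col5a1 (10.8), so that Fn1 at 12.7 lay among the highest of this programme. Their adjusted limma p ran from 0.52 to 0.93. The actin-severing gelsolin, encoded by Gsn, and the metalloproteinase inhibitor Timp2 differed by 0.20 ± 0.22 and -0.09 ± 0.23 (SE). Col5a1, a fibrillar collagen chain, was the only tested collagen of the list with a lower mean of log2(normalized count + 1) in OVA, by -1.33 ± 0.66 (SE), although Col6a2 had a lower mean normalized count (2.71 in PBS and 2.18 in OVA).

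By group, the collagens had a median difference of 1.38 (8 tested, 7 positive), the fibroblast receptors and lineage factors 1.47 (5 tested, 3 positive) and the reticular niche factors 0.84 (6 tested, 5 positive). The elastic fibre genes had a median of 0.50 (7 tested, 5 positive), matrix processing 0.45 (7 tested, 6 positive), matrix glycoproteins 0.25 (7 tested, 4 positive) and small leucine-rich proteoglycans -0.19 (2 tested, 0 positive). Only these 2 of the 6 proteoglycans listed could be placed. They rest on 12 and 32 reads in all and differed by -0.31 ± 0.72 and -0.06 ± 0.88 (SE), so no direction is read from them. Col3a1 and Col1a1, unlike Col5a1 and chosen after their values were seen, had higher means in OVA but overlapping groups. Col3a1, the collagen of reticular fibres, stood at 0 in 4 PBS libraries and at 7.22 normalized counts in PBS replicate 5, and at 15.0, 14.4, 19.0, 2.40 and 23.6 in OVA (3.12 ± 0.73 SE, limma adjusted p = 0.17). Without PBS replicate 5, the only PBS library with a read of Col3a1, the fitted difference was 3.73 with a limma adjusted p = 0.020, in a fit that called 135 rows in place of 1. Leaving it out sets every PBS value of Col3a1 to 0, so a larger difference was fixed in advance and no support is drawn from it. Col1a1 stood at 1.87, 2.58, 19.4, 3.23 and 4.51 in PBS and at 12.7, 20.03, 38.9, 9.61 and 51.1 in OVA (2.07 ± 0.62 SE, limma adjusted p = 0.28).

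**Figure D5:**
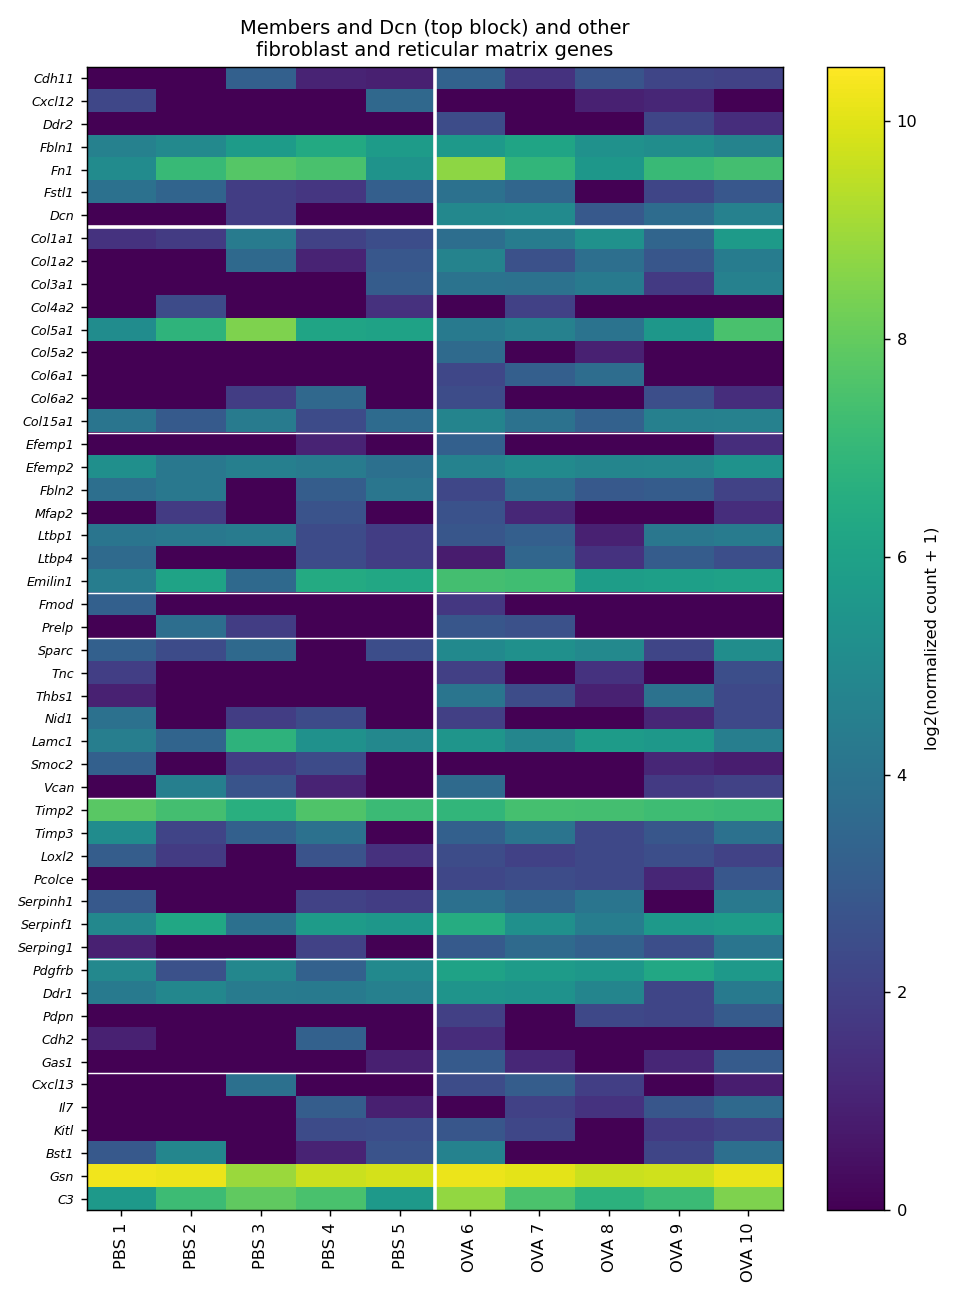
Log2(normalized count + 1) of the 6 members and Dcn (top block) and of the 43 other fibroblast and reticular matrix genes that could be placed, in blocks by function, in each library (columns, PBS left and OVA right of the white line). Dark cells, at or near 0, fill most of the PBS columns of Col3a1, Pcolce, Thbs1 and Pdpn, while Fn1, Fbln1, Timp2 and Gsn are read in all 10 libraries. Other genes, such as Col4a2 and Fmod, are dark in most columns of both groups.

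Markers of other cells are given beside these values, and their part in the results above was not tested. Of 7 mesothelial markers, for the cells that coat the spleen, all had a positive difference (median 1.64), with summed levels from 22.2 to 89.3 in PBS and from 68.5 to 156 in OVA. Every OVA library lay above every PBS library for Krt19 and Upk1b, with 0.861 against 13.8 and 0.396 against 7.99 normalized counts on average (limma adjusted p = 0.11 and 0.21). Msln and Upk3b had no read in PBS but were read in only 3 OVA libraries each, and 30 of the 38 Msln reads lay in OVA replicate 6. For Krt18, the highest of the list, the groups overlapped (difference 0.24, limma adjusted p = 0.88). The B cell markers had a median of 1.63 (8 markers, sums 752 to 2487 in PBS and 796 to 7370 in OVA), the neutrophil markers 2.13, the macrophage markers 0.48 and the endothelial markers 0.39. The 6 smooth muscle and pericyte markers had a median of 0.20 (sums 20.6 to 58.5 and 23.7 to 49.5), and the 6 megakaryocyte and platelet markers 0.13 (sums 780.5 to 998 and 662 to 924). The 7 erythroid markers had a median of -1.37 (sums 3118 to 16224 and 508 to 9944) and the 8 pancreatic acinar markers -1.24 (sums 217 to 886 and 105 to 561), and every member of both lists had a lower mean in OVA. The single adipocyte marker placed, Fabp4, had a difference of 1.23, and the 14 T cell markers had a median of 0.05. No placed marker was at 0 in all libraries. Limma and edgeR called 0 of the 83 markers tested, 16 had an unadjusted limma p under 0.05, and DESeq2 called 5, where it called 0.894% of all rows. Of the 16, 12 were higher and 4 lower in OVA, beside 7.12% and 2.65% of all rows. The 5 were Krt19, Cr2, Fcer2a, Ngp and Ltf, all higher in OVA and, except Ngp, named after their values were seen. The highest gene of each list by mean level was Lck, Egfl7, Acta2, Krt18, Csf1r, Cd79b, Ngp, Itgb3, Hba-a1, Fabp4 and Cela1, in the order T cell, endothelial, smooth muscle, mesothelial, macrophage, B cell, neutrophil, megakaryocyte, erythroid, adipocyte and pancreatic acinar.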

How the data were processed

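RNA from 5 PBS and 5 OVA spleen CD3+ T cell samples was sequenced. The authors used STAR 2.6.1d and the assembly of Ensembl release 99 (mm10 per the labels), with Partek Flow 9.0 for the counting, and scaled each library by a median-ratio factor. The deposited values are thus normalized counts (signal). Whole reads were recovered from the value of 1 read in each library, with at least 99.9% of values whole within a tolerance of 0.1. Members and lists were chosen with earlier results of these data known.

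Of the listed names, 97.7% are in GENCODE M21 (GRCm38), and 99.5% of these share its chromosome and start. The distance between names and values was estimated by a hidden Markov model on the mean over all libraries, without the groups. Distances ran from 0 to 25 rows, 92.8% of rows were placed with a probability of at least 0.9, and other genes were used only if they were. The model and the fits were run on simulated data, with outcomes not given here. For the fits, large changes were simulated only in rows with a mean of at least 10. Fstl1, Cdh11, Cxcl12 and Ddr2 lie below that mean, so the simulation says nothing of calls at their levels.

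The log2 of the normalized count plus 1 was fitted with limma 3.58.1 (R 4.3.3, trended variance) in rows with a mean of at least 1, and calls were made at a Benjamini-Hochberg adjusted p of 0.05. Alternatives were count models on whole reads (edgeR 4.0.16, DESeq2 1.42.0), other pseudocounts (0.5 and 0.1), minimums (0, 5 and 10) and scalings, array weights, each library left out, and other distances. Promoter windows came from RefSeq. Genes named besides the members were the other matrix genes called, those whose groups do not overlap (up to 8), the 6 highest per kilobase, the highest of each marker list and the 5 rows most like the members. Col1a1, Col3a1, Col4a2, Col6a2, Fmod, Pdpn, Sparc, Krt19, Upk1b, Msln, Upk3b, Cr2, Fcer2a and Ltf were added after their values were seen. No batch is given in the labels.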

Additional observations from a re-analysis of the deposited data

Results flagged for a closer look

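In 13 of 82 groups of 5 libraries, over the 41 genes named or examined above, 1 library stood apart from the other 4 by Dixon's ratio, the gap to the nearest library over the range of the group. A rate by chance of about 1 in 20 groups assumes normally distributed values, which was not checked for these counts. Where 4 libraries have no read, any read in the remaining library makes the ratio 1. This fixed the ratio in 4 of the 13 groups, so the count of 13 cannot be weighed against that rate. No excess of libraries that stand apart is read from it. The ratio was 0.87 for Cdh11 in PBS and 1 for Dcn in PBS, both through PBS replicate 3, where 3 reads and 1 read made the value. PBS replicate 3 also stood apart for Col1a1 (0.849) and Col5a1 (0.749). The ratio was 1 for Thbs1 (PBS replicate 1, 1 read), Col3a1 (PBS replicate 5, 8 reads) and Krt19 (PBS replicate 2, 5 reads), in each of which the other 4 PBS libraries had no read. In OVA, replicate 10 stood apart as the highest for Col5a1 (0.813) and Cela1 (0.879), replicate 6 for Ngp (0.785, at 28611 normalized counts) and replicate 7 for Upk1b (0.79). OVA replicate 9 was the lowest for Sparc (0.76), at 3.60 normalized counts, and PBS replicate 2 the lowest for Phf11d in PBS (0.737). No group of Fn1, Fbln1, Fstl1, Cxcl12 or Ddr2 had such a library.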

How the results depend on the processing

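The median difference of the 5 tested members was -0.09, ran from -0.27 to 0.30 with 1 library left out, and was 0.36 over 6 members with names as listed. Its sign is not fixed: it changed in 9 of 23 alternatives, 7 of them without a change of rows. Among those 7, the fit without a minimum held 6 members and that at a minimum mean of 10 held 2. The differences of Cdh11 (1.03 to 2.73), Fn1 (0.20 to 0.98) and Cxcl12 (-3.10 to -0.14) kept their sign in every alternative that kept their rows, while those of Fbln1 and Fstl1 did not. Values taken 1 row nearer to the name gave -1.56 for Fn1 and 0.89 for Cxcl12.

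The count of rows called by limma, 1, was 0 at a pseudocount of 0.1 and under quantile normalization, 2 with array weights and in edgeR, and 167 in DESeq2 (110 higher in OVA). With 1 library left out it ran from 0 to 135, the highest without PBS replicate 5, and the cause was not tested. For the other matrix genes the count of 0 ran from 0 to 1 (Col3a1, without PBS replicate 5). Their median of 0.70 ran from 0.47 to 0.78 with 1 library left out, was 1.04 at a pseudocount of 0.1, 0.37 at a minimum mean of 10, 0.38 under quantile normalization, 0.44 with array weights and 0.45 in DESeq2, and was 0.082 with names as listed, 0.13 at 1 row nearer and 0.27 at 1 row farther. Dcn differed by 3.85, and by 6.50 at a pseudocount of 0.1, 5.87 in edgeR and 6.004 in DESeq2. Scaling every library to the same total moved the median of all rows from 0.04 to 0.15. No paired analysis was possible because the groups share no replicate numbers (1 to 5 against 6 to 10). Cdh11, Cxcl12 and Ddr2 rest on 33, 18 and 11 reads in all, so depth limits what can be said of them.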
